A study of Mus musculus with 2 samples.

Results

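The Tie receptor system was examined in cultured mouse embryonic endothelial cells through 6 genes. These were the receptor genes Tek and Tie1, the receptor-associated phosphatase gene Ptprb, the ligand genes Angpt1 and Angpt2, and the related secreted factor gene Angptl2. Members were chosen by name, as the probe sets whose annotated gene symbol was exactly 1 of the 6. This gave 9 probe sets of 5 genes, among 18193 genes in all. Angptl2 was matched by no probe set and was not analysed here. Of the 9 probe sets, 8 lay above the level filter, a log2 value of 3.97 for the mean over both arrays, and all 5 genes passed it in their brightest probe set.

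The cells were primary endothelial cells from embryos of strain C57/BL6 at the E10.5 stage of mid-gestation, all homozygous for a floxed Snail1 allele, and were grown in 20% serum with endothelial growth factors. The WT group received an adenovirus encoding β-galactosidase and the Snail1 KO group an adenovirus encoding the Cre recombinase, and both recovered for days before RNA extraction. Snail1 is a zinc finger transcriptional repressor encoded by Snai1. Each group is 1 array of 1 culture, so no spread between cultures could be estimated, no difference was tested, and all differences are described by size. Neither group holds cells given Cre without the floxed allele, so loss of Snail1 and an effect of Cre or of its virus cannot be told apart. The labels do not say how many embryos were pooled, how complete recombination was, or which exons are floxed. Transcript abundance was read as log2 RMA values, in which 1 unit is a 2-fold difference, and levels of different probe sets are not compared.

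The arrays held 45101 probe sets, with median log2 values of 4.66 (WT) and 4.70 (Snail1 KO) outside the controls. Snai1 was at 5.33 on the WT array and 3.59 on the Snail1 KO array, and the array's 4 control probe sets for Cre were at 2.69 to 3.83 and at 11.87 to 12.86. The endothelial cadherin gene Cdh5 was at 11.34 and 11.46. All 16 pan-endothelial markers, Tek and Tie1 among them, lay above the filter level, between 8.86 and 13.36 on the WT array. Of the markers of other cell types, 7 of 12 leukocyte, 6 of 11 fibroblast and 10 of 12 mural genes also passed the filter. The pan-leukocyte gene Ptprc, the fibroblast receptor gene Pdgfra and the pericyte gene Rgs5 were below it. The fibroblast genes Thy1 (11.43 in WT, 11.37 in Snail1 KO) and Dcn (9.45 and 9.62) were well above it, as were the monocyte and macrophage genes Cd14 (8.43 and 8.60) and Cd68 (7.27 and 7.20).

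Tek encodes Tie2, the angiopoietin receptor tyrosine kinase of endothelium. Angpt1, made mainly by mural and mesenchymal cells, activates Tie2 and favours quiescent, tightly sealed vessels, whereas Angpt2 is made by endothelial cells themselves and can activate or antagonise Tie2 depending on context. Tie1 is a related receptor that associates with Tie2 and modulates its signalling, and Ptprb encodes VE-PTP, a receptor phosphatase that removes phosphate from Tie2. Active Tie2 signals through PI3 kinase and Akt, which keeps the transcription factor Foxo1, an inducer of Angpt2, out of the nucleus.

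The receptor, phosphatase and Angpt2 transcripts were all somewhat higher on the Snail1 KO array, and Angpt1 was nearly level. Of the 5 genes, 4 were higher and 1 was lower in the brightest probe set, where 48.9% of the 12874 analysed genes were higher by any size. None of the 5 reached a 2-fold difference in either direction, a size reached upward by 0.971% and downward by 1.84% of analysed genes. Tek alone was at least 1.5-fold higher (background 5.06%, with 6.08% lower by that size), and with each array centred on its median Tek was at 0.58 log2 units and no member reached 1.5-fold. Tek, Tie1 and Ptprb were at least 1.2-fold higher (background 19.9%, with 21.9% lower by that size). At this size the genes counted depended on the processing, with Ptprb under it after median centring (0.24 log2 units) and Angpt2 past it after level-dependent centring (0.33) or in the mean of its probe sets (0.44). Among the 9 probe sets, 7 were higher, against 49.6% of all probe sets. The median difference over the 5 genes was 0.28 log2 units, and that over all analysed genes was -0.0083. Genes of 1 system are not independent of each other, and with 5 of them these shares are a description of the 2 arrays. In RNA from a whole culture, a change in the number of cells of a type and a change in RNA per cell cannot be told apart, whether upward or downward.

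**Figure D1:**
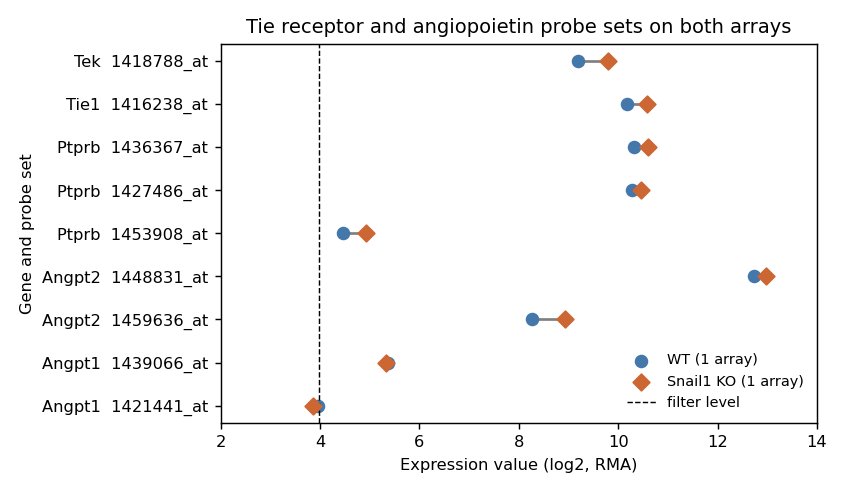
Log2 RMA expression value (horizontal axis) of each of the 9 probe sets (vertical axis), with circles for the WT array, diamonds for the Snail1 KO array and a dashed line at the filter level of 3.97. The Snail1 KO value lies to the right of the WT value in the 7 probe sets of Tek, Tie1, Ptprb and Angpt2, and slightly to its left in both probe sets of Angpt1.

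Tek showed the largest difference among the brightest probe sets of the members. Its single probe set, 1418788_at, read 9.18 on the WT array and 9.80 on the Snail1 KO array, moving from the 89.3rd to the 93.1st percentile of probe sets on each array. The Snail1 KO value was thus 0.62 log2 units, or 1.53-fold, higher. Tek was the 571st of the 12874 analysed genes when these were ordered from the most positive difference, so 4.44% of genes were as high or higher. Of the 1000 probe sets nearest to it in mean level, 3.8% were higher by at least as much, and the robust SD of the difference among them was 0.33.

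Tie1, the partner receptor, differed in the same direction by less. Its single probe set, 1416238_at, gave 10.17 for WT and 10.57 for Snail1 KO, a difference of 0.40 log2 units or 1.32-fold. Among probe sets of like level 9.8% were as high or higher, and 11.3% of analysed genes were. Since Tek and Tie1 each rest on 1 probe set, neither difference has a second measurement on these arrays.

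The sequences upstream of Tek and Tie1 are shown because these were the measured members with a promoter sequence at hand. Snail1 is a repressor that binds E-box DNA, and whether it acts at either gene was not tested. They are the 250 bases before the annotated start in RefSeq, build GRCm38.p6, each written on the strand of its gene (plus for Tek at chr4:94739039-94739288, minus for Tie1 at chr4:118489850-118490099). Capitals mark the ETS core GGAA or its complement TTCC, a motif read by the ETS factors of endothelium.
Tek: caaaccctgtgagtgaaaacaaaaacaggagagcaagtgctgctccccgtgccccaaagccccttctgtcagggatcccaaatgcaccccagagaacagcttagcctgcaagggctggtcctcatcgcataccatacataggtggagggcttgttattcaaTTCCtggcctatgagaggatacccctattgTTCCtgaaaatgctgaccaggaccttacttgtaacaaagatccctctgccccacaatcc
Tie1: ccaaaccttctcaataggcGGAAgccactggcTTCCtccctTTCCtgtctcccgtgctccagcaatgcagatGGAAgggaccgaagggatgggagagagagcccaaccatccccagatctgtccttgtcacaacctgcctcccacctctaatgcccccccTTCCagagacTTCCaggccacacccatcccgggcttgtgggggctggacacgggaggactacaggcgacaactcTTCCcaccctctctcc
The Snail-type E-box, CAGGTG or its complement CACCTG, occurred in neither window, and 17.2% of 32851 RefSeq promoter windows of the same length hold it on either strand. The Tek window holds 2 ETS cores and the Tie1 window 7, overlaps allowed, where the median promoter window has 3 and 93.4% have at least 1. The FOXO motif TGTTTAC or its complement was found in neither of them and in 3.17% of all windows. A match in these windows is not a binding site, and the absence of a match concerns these 250 bases only.

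Ptprb was higher in all 3 of its probe sets, by small amounts. The brightest, 1436367_at, read 10.32 on the WT array and 10.60 on the Snail1 KO array, a difference of 0.28 or 1.21-fold. The next, 1427486_at, read 10.28 and 10.45, which is 0.17 log2 units higher. These bright probe sets differ from each other by less than the usual distance between probe sets of 1 gene, a robust SD of 0.35 log2 units over 10436 such pairs. The dim probe set 1453908_at was at 4.46 and 4.92, a difference of 0.46 close to the filter level. Of probe sets near each in level, 17.3%, 25.3% and 13.7% were as high or higher, so differences of the size seen for Ptprb were common on these arrays. Its relatives of the same phosphatase subfamily that could be matched, Ptprj and Ptpro, were dim, with Ptprj at 3.30 and 3.28 and Ptpro at 3.73 and 3.65, both below the filter.

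Angpt2 was higher in both of its probe sets, by unequal amounts. Probe set 1448831_at gave log2 values of 12.73 in WT and 12.97 in Snail1 KO, and was 0.24 log2 units or 1.18-fold higher. The dimmer 1459636_at was at 8.27 and 8.92, which is 0.65 log2 units or 1.57-fold higher, the largest difference of any member probe set. The 2 estimates lie 0.41 log2 units apart, so Angpt2 was higher in both and its size is uncertain between them. Of the 1000 probe sets nearest in level, 11.7% were as high as the first and 5.1% as high as the second. The first lies near the top of the range, so its 1000 are the brightest on the arrays and most are dimmer than it.

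Angpt1, the agonist ligand, was dim and nearly level on both arrays. Probe set 1439066_at read 5.37 on the WT array and 5.33 on the other, a difference of -0.040, and 91.3% of probe sets of like level differed by at least as much in either direction. The other, 1421441_at, was at 3.96 and 3.85, with both values below the filter level, and its difference of -0.11 is smaller than the robust SD of 0.28 near that level.

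**Figure D2:**
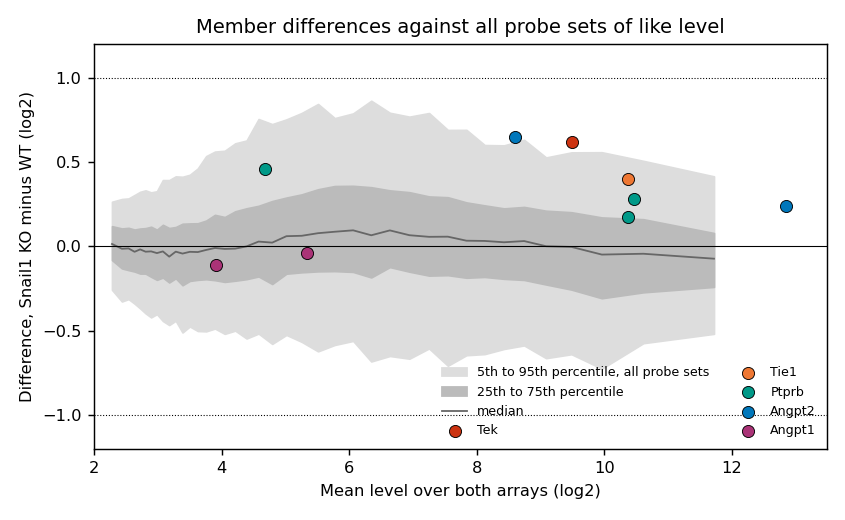
Difference in log2 value, Snail1 KO minus WT (vertical axis), against the mean log2 level over both arrays (horizontal axis), with 1 point for each of the 9 member probe sets. The grey bands span the 25th to 75th and the 5th to 95th percentiles of all probe sets in 40 bins of mean level, drawn to the median level of the last bin, and dotted lines mark 2-fold. Tek at 0.62 and the dimmer Angpt2 probe set at 0.65 lie at or above the upper edge of the wide band, Tie1 and Ptprb lie within it, and both Angpt1 points lie close to 0. The brighter Angpt2 probe set, at 0.24, lies to the right of where the bands end.

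Markers that moved alongside these genes are given as values. Over all analysed genes, 48.9% were higher by any size and the median difference was -0.0083. Over the 16 pan-endothelial markers, which contain Tek and Tie1, the median difference was 0.097, with 10 higher and 6 lower. The VEGF receptor gene Kdr was higher by 0.49 and the tight junction gene Cldn5 by 1.08, and the sialomucin gene Cd34 was 1.62 log2 units lower. All 6 lymphatic markers were higher, with a median of 0.69. Reln, a secreted glycoprotein of lymphatic endothelium, differed by 1.78, the SoxF factor gene Sox18 by 0.72, and Flt4, which encodes the VEGF-C receptor, by 0.67. These are brightest probe sets. The other of Flt4 gave 0.24, and the other of Reln, below the filter, gave 0.073. Of 10 analysed mural markers 7 were lower, with a median of -0.36, and the level summed over the list on the linear scale was 3770 in WT and 1113 in Snail1 KO. That sum is carried by the contractile genes Acta2 (10.94 and 9.09) and Tagln (10.35 and 7.80), while the pericyte receptor gene Pdgfrb was dim at 4.45 and 4.05. Acta2 also had a probe set below the filter that was higher, by 0.20. Mcam, an adhesion molecule of mural and endothelial cells, differed by -0.94, and the smooth muscle myosin gene Myh11 was below the filter. The 6 analysed fibroblast markers had a median of 0.14 and a summed level over the list of 4194 and 4303. The 7 analysed leukocyte markers had a median of -0.075 and sums of 863 and 811. In those lists the collagen gene Col3a1 differed by -0.998, the matrix gene Fbln2 by 0.60 and the actin-binding protein gene Coro1a by -1.96. Another probe set of Coro1a above the filter differed by -1.64. Col3a1 and Coro1a each also had a probe set below the filter that was higher, by 0.22 and 0.23. The part of any of these in the Tek, Tie1, Ptprb and Angpt2 differences was not tested.

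The remaining angiopoietin and angiopoietin-like genes were mostly dim and lay in both directions. Of 7 named, 6 were matched and 3 analysed, with 1 higher and 2 lower (background 48.9% higher), too few to compare with that share. Of the 3, 1 was at least 2-fold lower (background 1.84%). Angptl4, a secreted inhibitor of lipoprotein lipase, read 8.49 on the WT array against 6.91 on the Snail1 KO array, a log2 difference of -1.58, while its other, dim probe set gave 0.062. Angptl1 was at 4.73 and 5.30 in its brightest probe set, and the others went down to a difference of -0.074. Angptl6 differed by -0.058. Angpt4, the further Tie2 ligand, was below the filter at 3.59 and 3.52, as were Angptl7 and Angptl8.

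Genes of Tie2 signalling showed small differences in both directions. Of 30 named genes 28 were matched and 27 analysed. In the brightest probe sets 18 were higher and 9 lower (66.7% higher, background 48.9%). None of these was past 2-fold (background 2.81% in either direction). In another probe set above the filter Adam17 was higher by 0.996, against -0.073 in its brightest. Gsk3b likewise reached 0.80, against 0.26 in its brightest. At least 1.2-fold higher were 6 of the 27, or 22.2%, close to the background of 19.9%. The median difference was 0.15 log2 units. The largest difference in a brightest probe set was that of Grb14, an adaptor that binds activated Tie2. Grb14 was dim, with 4.35 for WT and 5.06 for Snail1 KO, 1.64-fold higher. Its other probe set, below the filter, was higher by only 0.098. The related adaptor gene Grb7 was also dim, at 4.89 and 5.46. In the other direction, the fibronectin receptor subunit gene Itga5, whose product can bind angiopoietins, was at 8.01 and 7.31 in its brightest probe set, but another of its probe sets was higher by 0.28. Nos3, endothelial nitric oxide synthase, which lies downstream of Akt, was at 8.57 and 8.07, a difference of -0.50. Akt1 itself was nearly level in its brightest probe set, at 10.35 and 10.33. Its probe sets above the filter ranged from -0.17 to 0.25. Cdh5, whose product VE-cadherin is a further VE-PTP substrate, was higher by 0.12, and Mmp14, a membrane protease known to shed Tie2, differed by -0.27. Svep1, a matrix protein that binds Tie1, was below the filter at 3.73 and 3.57.

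Transcription factors and partners linked to these genes differed in both directions. Of 15 analysed, 9 were higher and 6 lower, with a median of 0.21, and 1 was past 2-fold (backgrounds of 48.9% higher and 2.81% past 2-fold in either direction). Foxo1 gave 9.50 for WT and 9.71 for Snail1 KO, a difference of 0.21, and its probe sets above the filter gave 0.069 to 0.23. Prox1, the lymphatic transcription factor, was the gene past 2-fold, at 9.57 and 10.63. The flow-responsive factor gene Klf2 was 1.62-fold higher. Of the ETS family, Fli1 differed by 0.46, Ets1 by 0.36, Erg by -0.25 and Elf1, described as a regulator of the Tie2 promoter, by -0.63 and -0.29 in its 2 probe sets. Gata3, a dim gene here, was at 4.81 and 3.96. The ETS genes thus did not share 1 direction, and transcript levels say nothing of the activity of these factors.

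**Figure D3:**
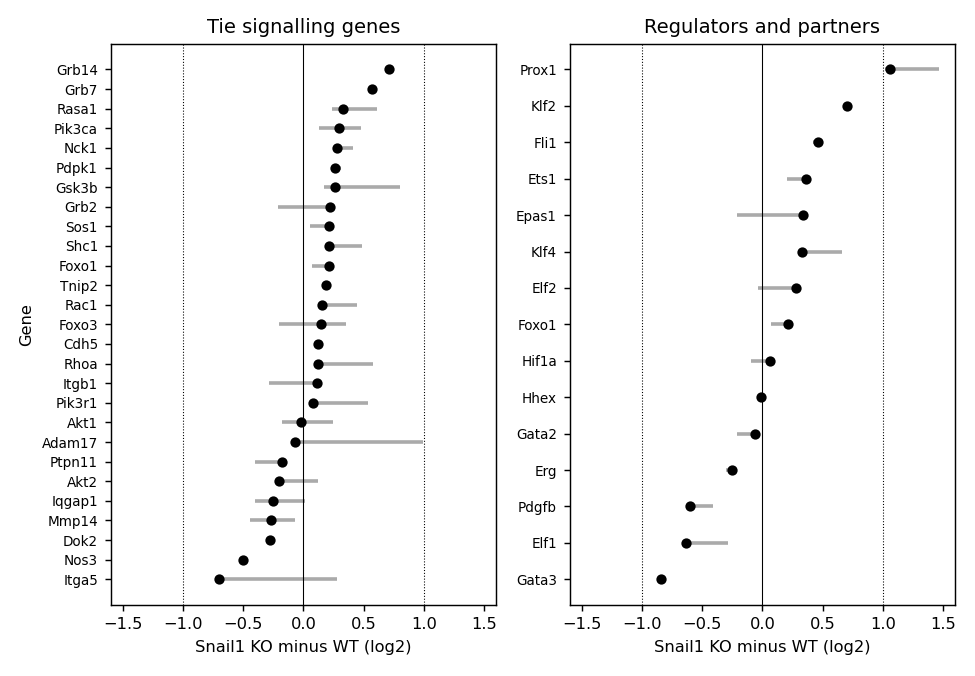
Difference in log2 value, Snail1 KO minus WT (horizontal axes), of the 27 analysed Tie signalling genes and the 15 regulators and partners (vertical axes). Points are the brightest probe set of each gene, grey bars the range over its probe sets above the filter, and dotted lines mark 2-fold. Most points lie between -0.5 and 0.5, and Prox1 at 1.06 is the gene past 2-fold.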

How the data were processed

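The deposited table holds log2 values that the authors computed by RMA. The submitters' processing notes name RMA and affy, and their versions are not given in these sources. RMA includes quantile normalization, which hides changes of total mRNA, and compresses fold changes of dim probe sets. No scanner intensities or detection calls were used, so signal over background is not known. Per the labels' protocols, 250 ng of total RNA were amplified and biotinylated.

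Of 45101 probe sets 64 were controls. GEO's platform annotation assigned a single symbol to 34945 of the remainder, which were used, while 932 had several and 9160 were unnamed here. The difference was the Snail1 KO minus the WT log2 value. Each gene was represented by its brightest probe set by mean level and analysed above the 40th percentile of that mean (12874 of 18193 genes). Motifs were searched in RefSeq promoter sequences, which held Tek and Tie1 among the measured members. Python 3.11.15, pandas 2.3.3 and statsmodels 0.14.6 were used. Counting by size was tested on simulated data.

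The members and gene lists were chosen with earlier results of these data known. Named were the members, Snai1, Foxo1, Cdh5, and list genes past 2-fold or among the 4 largest differences of their list. Ptprc, Pdgfra, Rgs5, Thy1, Dcn, Cd14, Cd68, Pdgfrb, Akt1, Mmp14, Svep1, Angptl6, Angpt4, Fli1, Ets1 and Erg were added after their values were seen. Adam17 and Gsk3b were added in the same way. For lists of mostly dim genes, not all of the 4 are described. With 2 arrays, no genes of like pattern were sought. Alternatives were other size thresholds, filters, probe set rules and centrings.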

Additional observations from a re-analysis of the deposited data

Results flagged for a closer look

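Outside the gene comparisons, the array's own Cre controls gave a signal on the Snail1 KO array that was far above WT. The 4 probe sets differed by 8.04, 9.52, 9.44 and 10.17 log2 units. Their WT values were below the filter level, so the sizes are not exact. The source of this signal was not tested, and the array's other control probe sets were not examined.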

How the results depend on the processing

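The direction of all 5 member genes was the same under median centring, level-dependent centring, the mean of all probe sets and the brightest probe set without those named _s_at or _x_at. Tek ranged from 0.58 to 0.63 log2 units, Tie1 from 0.36 to 0.45, Ptprb from 0.24 to 0.33, Angpt2 from 0.20 to 0.44 and Angpt1 from -0.11 to -0.040. The Tie signalling median ranged from 0.11 to 0.18. Counts moved with the size threshold by construction. At 1.5-fold, 1 member (Tek) was higher, but 0 after median centring, where Tek fell short at 0.58. At 1.5-fold, 1 Tie signalling gene was higher and 1 lower, against 5.06% of all genes higher and 6.08% lower. At 1.2-fold, chosen after seeing the data, 3 members were higher (2 after median centring, 4 after level-dependent centring or with the mean of probe sets), and 6 Tie signalling genes were higher and 4 lower, against 19.9% and 21.9%. At 3-fold the background was 0.179% higher and 0.699% lower. Averaging the probe sets of each gene left 0.632% of genes 2-fold higher.

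No paired analysis was possible because each group holds 1 array. No array was left out, for lack of replicates. Other background corrections and normalizations from scanner values were not run. Tek and Tie1 have 1 probe set each. The number of arrays limits the precision, and signal over background is not known for the dim probe sets of Angpt1 and Ptprb.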
